A study of Rattus norvegicus with 23 samples.

Results

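The step from 12 to 24 h on a soft substrate was followed in adult rat hippocampal neural stem cells, as 3 libraries taken at 24 h (rounds 1, 2 and 3) set against 2 taken at 12 h (rounds 1 and 3). These 5 libraries belong to a series of 23 that asked which genes of these cells depend on substrate stiffness, with cells held on soft or stiff substrates and sampled at 0, 12, 24 and 36 h. The libraries were chosen by the substrate, time and round in their titles. Every group used here came from female animals of wild-type genotype and was kept in the same medium for mixed differentiation, which was DMEM-F12 with N2, 1 uM retinoic acid and 1% FBS. For the stiffness in units of pressure, the handling of the cells before 0 h and the number of animals, the sources used here give nothing. The round 2 library of soft 12 h was not analysed here. Whether a round is its own culture or animal cannot be read from the labels, and p-values therefore rest on the spread between these libraries, which may be technical.

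Hippocampal neural stem cells divide and can give rise to neurons, astrocytes and oligodendrocytes. Retinoic acid acts through nuclear receptors that change transcription directly, and serum supplies growth and differentiation factors, so withdrawal into such a medium is known to move cells out of the stem cell state over hours to days. Soft substrates are known to favour neuronal fates in these cells and stiff substrates glial fates, with an early window in which the mechanical cue acts. Libraries of the kind used here (QuantSeq FWD) count reads that start close to the 3' end of a polyadenylated transcript, so gene length has little part in a count. In bulk samples fewer cells of a type and less RNA per cell cannot be told apart.

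The deposited table identifies genes by Ensembl number and does not pair the numbers with symbols, and 0 of 32883 identifiers matched the reference table used here. Gene names, marker checks of the labelled cell type and pathway lists were therefore not used here. Genes are described by their course, their abundance and their behaviour on the other substrate, and 4 identifiers are shown in full. Total counts were 5008320, 6811157 and 4356620 in the soft 24 h libraries and 5428086 and 6519349 in the soft 12 h libraries, so the groups overlapped in depth. Over all 23 libraries totals ran from 2462360 to 6811157. Of 18319 identifiers with at least 1 count, 11857 passed the filter on low counts and were tested.

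A large part of the tested transcriptome moved between 12 and 24 h on soft, in nearly equal numbers up and down. With edgeR's quasi-likelihood test and a Benjamini-Hochberg adjusted p under 0.05, 4519 genes were called, or 38.1% of those tested. Of these, 2250 rose (19% of tested genes) and 2269 fell (19.1%). Without any scaling for composition, 61.3% of the called genes rose instead of 49.8%, so the even split holds for scaled totals only. In 2202 of the 2250 risen genes all 3 libraries at 24 h lay above both at 12 h, and in 2209 of the 2269 fallen genes all 3 lay below. Such separation was seen in 28.3% (above) and 27.7% (below) of all tested genes. A further 900 genes had an unadjusted p under 0.05 but did not pass after adjustment.

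Among called genes rises were larger at the median than falls, but these sets differed in abundance, with which called size varies. The median log2 fold change was 0.74 among risen genes and -0.62 among fallen genes, and the median over all tested genes was 0.01. Rises of more than 2-fold were called in 710 genes and falls of more than 2-fold in 502. They were split by mean CPM over all 23 libraries. Below 5 CPM there were 184 rises and 91 falls, from 5 to 20 CPM 246 and 133, and from 20 to 50 CPM 130 and 115. From 50 to 100 CPM there were 78 and 85, from 100 to 500 CPM 64 and 72, and at 500 CPM or more 8 and 6. At more than 4-fold the counts were 172 up and 46 down, and at more than 8-fold 55 up and 4 down. Folds of rare transcripts are the least certain, and 11 of the risen genes had no count at all in either 12 h library. Of the fallen genes 0 lacked counts in all 24 h libraries. That rule is harder to meet, with 3 libraries instead of 2, so the counts are not compared. Among genes that averaged at least 10 CPM over the 5 libraries (the counts divided by the scaled library total and put on a common basis) 391 rose and 342 fell by more than 2-fold, with 55 rising and 15 falling by more than 4-fold and 11 rising and 0 falling by more than 8-fold.

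**Figure D1:**
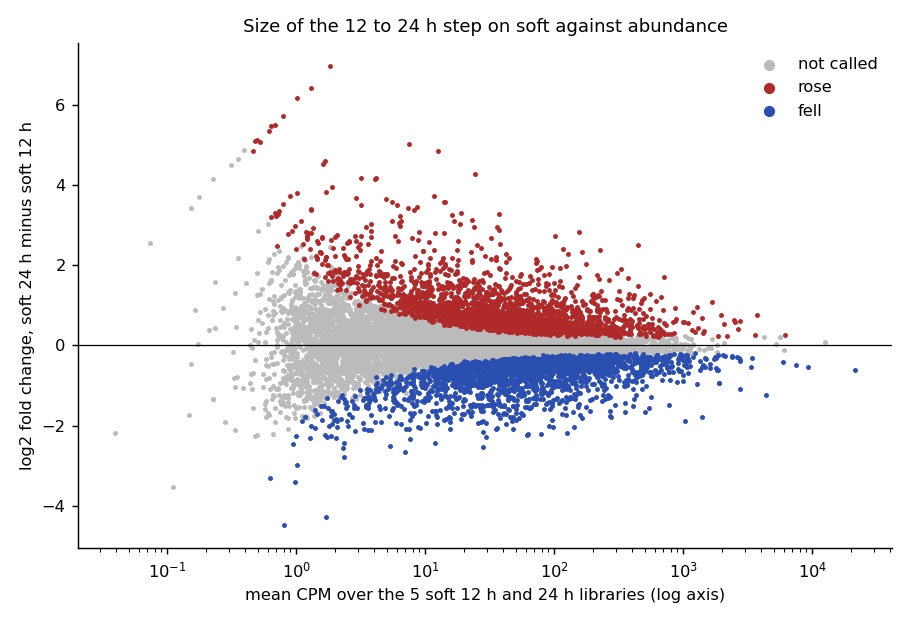
Each point is a tested gene, placed by its mean CPM over the 5 soft libraries (log axis) and its log2 fold change, soft 24 h minus soft 12 h. The 2250 risen genes (red) reach further from 0 than the 2269 fallen genes (blue), which are denser among abundant transcripts.

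Among the called genes the share that rose was higher for rare transcripts than for abundant ones. Genes were placed in classes by their mean CPM over all 23 libraries. Below 5 CPM 66.1% of the called genes rose, with 187 up and 96 down. Between 20 and 50 CPM the directions were nearly balanced, at 604 up and 590 down. At 500 CPM or more only 35.0% of the called genes rose, with 69 up and 128 down. The median abundance over all libraries was 40.1 CPM for risen genes and 58.1 CPM for fallen genes, compared with 16.7 CPM for genes not called. Abundant genes were also called more often, in 66.1% of cases at 500 CPM or more against 12.6% below 5 CPM. The median size of a called log2 change fell with abundance, from 1.81 below 5 CPM to 0.43 at 500 CPM or more. Rare transcripts can pass the test only with a large change, so neither trend is read as a trait of these genes. Over all tested genes, called or not, the median size was 0.61 below 5 CPM and 0.30 at 500 CPM or more, and noise of low counts enters the former. The decline in the share of rises with abundance was present with every scaling tried. It ran from 69.1% to 37.7% with RLE size factors and from 75.3% to 48.1% on totals with no scaling. Which classes had more rises than falls did depend on the scaling, as between 100 and 500 CPM 42.4% of the called genes rose with TMM factors and 54.5% with no scaling. The stiff libraries, which share no library with the soft ones, gave 61.3% below 5 CPM and 35.6% at 500 CPM or more. The filter and the classes over all 23 libraries were the same for both substrates. A rare gene can pass that filter through the groups where it is high, so the direction among rare genes is not read further.

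The identifiers with the smallest p in each direction show the change in every library. ENSRNOG00000018225 had 248, 237 and 267 CPM in the soft 24 h libraries, against 59.1 and 62.5 CPM in the soft 12 h libraries. All 24 h values lay far above both 12 h values, and its log2 fold change was 2.04 (SE 0.111), with a Benjamini-Hochberg adjusted p of 1.88e-14 in edgeR's quasi-likelihood test. On soft it had ranged from 48.7 to 58.7 CPM at 0 h and reached 289 to 301 CPM at 36 h, so most of its rise fell between 12 and 24 h. On stiff it had 238, 223 and 229 CPM at 24 h, against 60.5, 62.5 and 76.3 CPM at 12 h.

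ENSRNOG00000026589 had 262, 342 and 297 CPM in the soft 24 h libraries, against 91.5 and 86.7 CPM in the soft 12 h libraries. The groups did not overlap, although the 24 h libraries differed among themselves, with the round 2 library highest. Its log2 fold change was 1.75 (SE 0.112, edgeR adjusted p = 3.77e-13). It had also been flat over the first 12 h, at 88.9 to 99.2 CPM at 0 h, and it stood at 429 to 459 CPM at 36 h. On stiff the 24 h libraries held 285, 248 and 239 CPM and the 12 h libraries 108, 110 and 118 CPM.

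ENSRNOG00000021713 moved the other way, with 137, 142 and 131 CPM in the soft 24 h libraries, against 482 and 451 CPM in the soft 12 h libraries. The 24 h libraries were close to each other and all far below the 12 h libraries. Its log2 fold change was -1.77 (SE 0.106, edgeR adjusted p = 1.47e-13). At 0 h on soft it had 343 to 356 CPM, below its 12 h level (12 h minus 0 h log2 fold change 0.42, edgeR adjusted p = 0.00255). It was picked for its fall from the same 12 h libraries, which favours high values there, so a first rise is not secured. On stiff its log2 fold change from 0 to 12 h was 0.14 (edgeR adjusted p = 0.348). By 24 h on soft it lay well below its 0 h level (24 h minus 0 h log2 fold change -1.35, edgeR adjusted p = 3.37e-13). At 36 h it had 80.3 to 101 CPM.

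ENSRNOG00000001088 had 137, 141 and 136 CPM in the soft 24 h libraries, against 520 and 430 CPM in the soft 12 h libraries. The 12 h libraries were far apart from each other, yet both lay far above every 24 h library. Its log2 fold change was -1.78 (SE 0.113, edgeR adjusted p = 3.77e-13). Over the first 12 h on soft its change had the same sign as that of the preceding gene but was not called (log2 fold change 0.26, edgeR adjusted p = 0.0828). At 36 h it had 85.0 to 107 CPM. All 4 identifiers kept their direction and their call in the soft step under each of the 13 alternatives run for it.

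**Figure D2:**
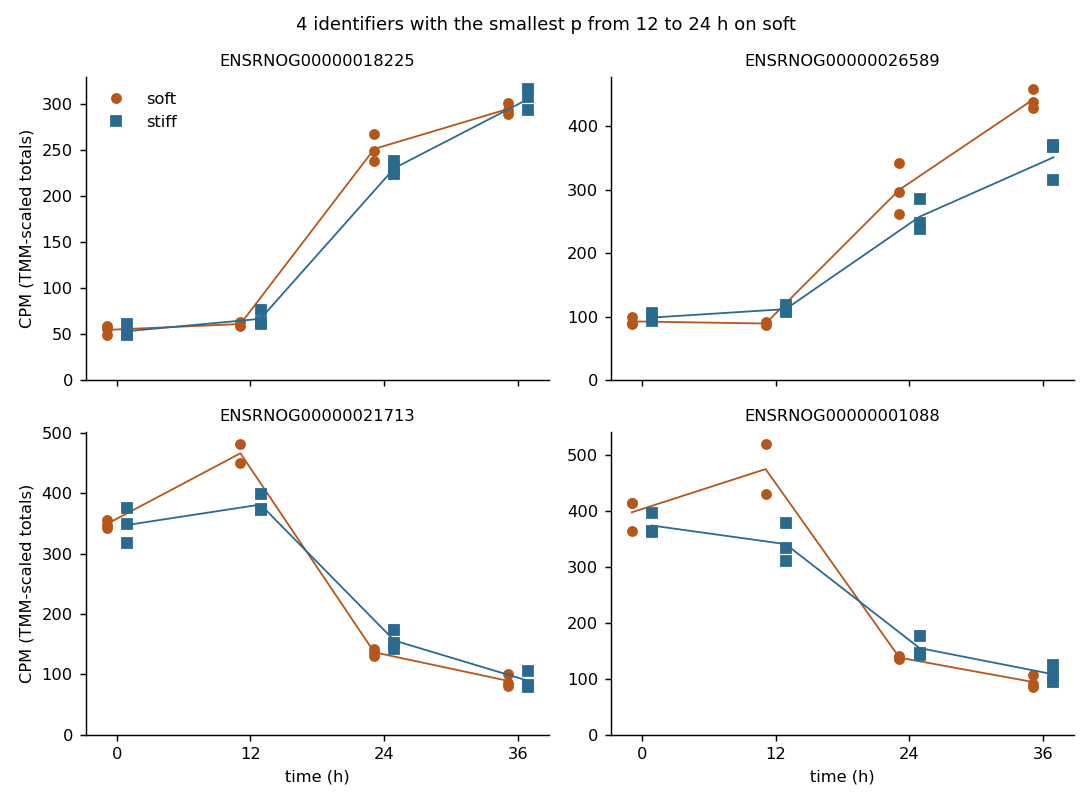
CPM of the 4 identifiers in every library by time, soft (circles) and stiff (squares), with lines through the group means. In each panel the soft 24 h libraries are separated from the soft 12 h libraries, as at 237 to 267 CPM against 59.1 and 62.5 CPM for ENSRNOG00000018225.

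The step moved a sizeable part of the transcript pool. Because genes chosen on the soft libraries would show an enlarged shift there, the sets called on stiff were read in the soft libraries. The 1717 genes that rose from 12 to 24 h on stiff held 23.7%, 24.0% and 24.8% of the counts of tested genes in the soft 24 h libraries, against 15.99% and 17.2% in the soft 12 h libraries. The 1913 genes that fell on stiff held 22.7%, 23.6% and 22.6% in the soft 24 h libraries, against 31.9% and 30.6% in the soft 12 h libraries. In both sets the 24 h libraries stood apart from the 12 h libraries by several times the spread within a time. At 36 h on soft the shares had moved further in the same directions, to 28.3%, 27.9% and 28.0% for the first set and 19.4%, 20.2% and 20.1% for the second.

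The step was alike in the 2 rounds sampled at both times. Among genes that averaged at least 10 CPM, 463 were more than 2-fold higher at 24 h than at 12 h in round 1. Read in round 3, 453 of them (97.8%) were higher, with a median log2 fold change of 1.09. The round 3 libraries entered the choice only through the mean of at least 10 CPM, which was taken over the 5 soft libraries. For the 472 genes more than 2-fold lower in round 1 the count in round 3 was 467 (98.9%), with a median of -1.13. Chosen in round 3 and read in round 1, 390 of 395 were higher and 350 of 355 were lower, with medians of 1.28 and -1.41. Over all tested genes 76.8% had the same sign in both rounds, and the 2 within-round steps correlated across genes with Pearson's r of 0.668, a description over 11857 genes that are not independent of each other. Leaving out each of the 5 libraries in turn gave 3196 to 4205 called genes.

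In a part of the genes the step was called in the direction opposite to the change of the first 12 h. On soft 3455 genes were called between 12 h and 0 h (29.1% of tested genes), 1804 higher (15.2%) and 1651 lower (13.9%) at 12 h. A gene was counted as returning where both steps were called in opposite directions, and 1109 genes met this, which are 652 that fell and then rose (5.50% of tested genes) and 457 that rose and then fell (3.85%). Both steps use the soft 12 h libraries, so an error in those libraries moves the steps in opposite directions. Without soft 12 h replicate 3 the first step called 2150 genes and 696 returned (420 and 276), and without soft 12 h replicate 1, 692 returned, of which 215 had risen first. The net change, soft 24 h minus soft 0 h, uses no 12 h library, and it was called in 5839 genes (49.2% of tested genes), 2982 higher (25.1%) and 2857 lower (24.1%). By that measure 423 of the 652 genes were back at 24 h, meaning that the net change was not called and was less than 50% of the size of the first step. Another 104 had gone past their 0 h level, 113 were still below it and 12 were unresolved. Of the 457 genes that rose first, 280 were back, 108 had gone past, 50 were still above and 19 were unresolved. The choice of these genes and the size of their first step still rest on the soft 12 h libraries. A gene with an error at 12 h alone would also count as back, so these counts cannot separate such errors from a return.

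The size of the excursion was read on the soft 12 h libraries that also chose the genes, which enlarges it, and it is given as a description with no test. For the genes that fell and rose again the median log2 fold change was -0.82 from 0 to 12 h and 0.81 from 12 to 24 h, with a net of -0.01. For the genes that rose and fell again the medians were 0.47 and -0.54, with a net of -0.04. The sets differed in abundance, so their sizes are not compared. The first set held 7.34%, 7.56% and 6.96% of the counts in the soft 24 h libraries, against 4.30% and 4.24% in the soft 12 h libraries. The second held 13.3%, 11.5% and 12.8% in the soft 24 h libraries, against 18.4% and 17.4% in the soft 12 h libraries. By 36 h the median level of the genes that fell first stood 0.03 to 0.21 above 0 h on the log2 scale, and that of the genes that rose first stood 0.12 to 0.28 below.

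**Figure D3:**
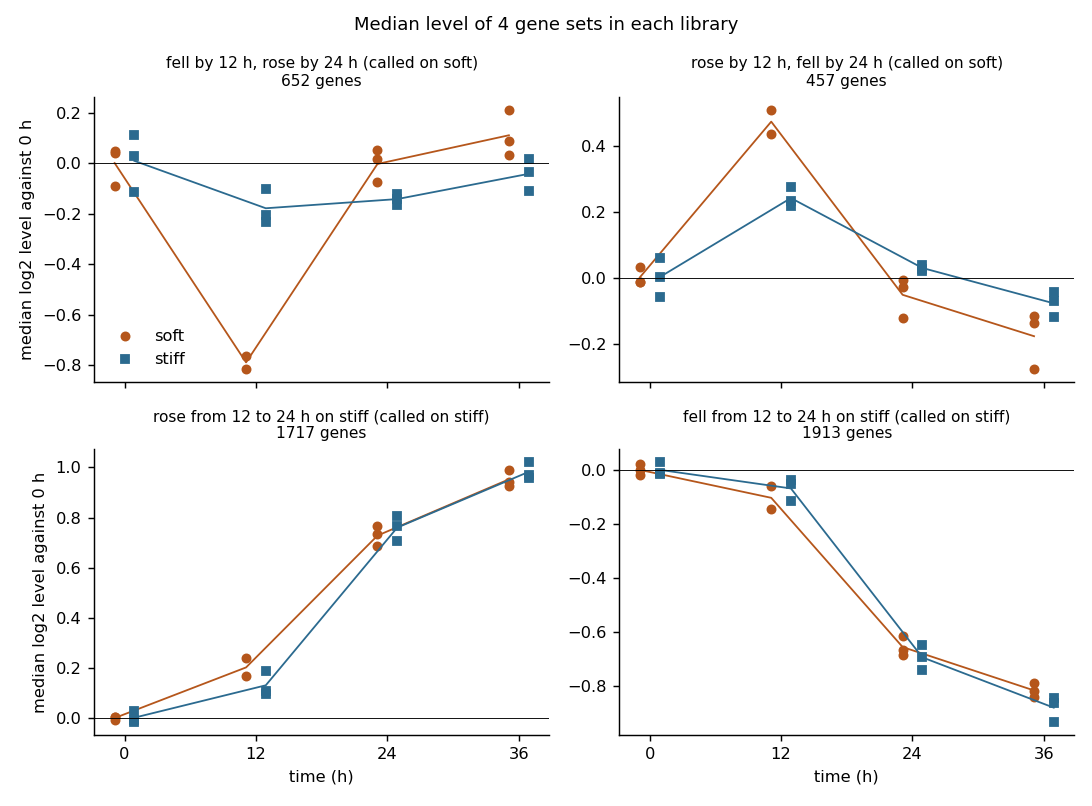
Median log2 level of 4 gene sets in each library relative to the mean of the same substrate at 0 h, soft (circles) and stiff (squares), with lines through the group means. The upper sets were called on soft and dip to about -0.8 or peak at about 0.5 at 12 h in the soft libraries, while the lower sets were called on stiff and follow nearly the same course on both substrates.

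To read the return without the shared library, the first step was called with one soft 12 h library and the second was read with the other. In this fit, over 12230 genes, the spread of the single 12 h library of each step is taken from the remaining groups. Of 976 genes called lower with the round 1 library, 71.8% had a positive second step with the round 3 library, against 52.4% of all tested genes, and 364 of them (37.3%) were called as risen, against 13.5% of all. The other way round, 61.5% of 1292 genes had a positive second step, again against 52.4%, and 377 (29.2%) were called as risen, against 13.8%. Genes that had fallen by 12 h therefore rose more often than genes at large in both readings. Genes called in the first step may be easier to call in the second, so the shares called have no matched background.

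In these unshared readings genes that had risen by 12 h showed no comparable turn. Of 1170 genes called higher with the round 1 library, 47.5% had a negative second step with the round 3 library, against 47.6% of all tested genes, and 185 (15.8%) were called as fallen, against 12.5%. The other way round, 40.4% of 1249 genes had a negative second step, against 47.6%, and 150 (12.0%) were called as fallen, against 13.9%. With RLE size factors or no scaling the ordering was alike, with 60.5% to 71.7% of the fallen genes rising, against 52.5% to 59.7% of all, and 32.2% to 46.0% of the risen genes falling, against 40.3% to 47.5% of all. In all, 549 and 527 genes returned in these unshared readings. With 1 soft 12 h library serving both steps the counts were 692 and 696.

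**Figure D4:**
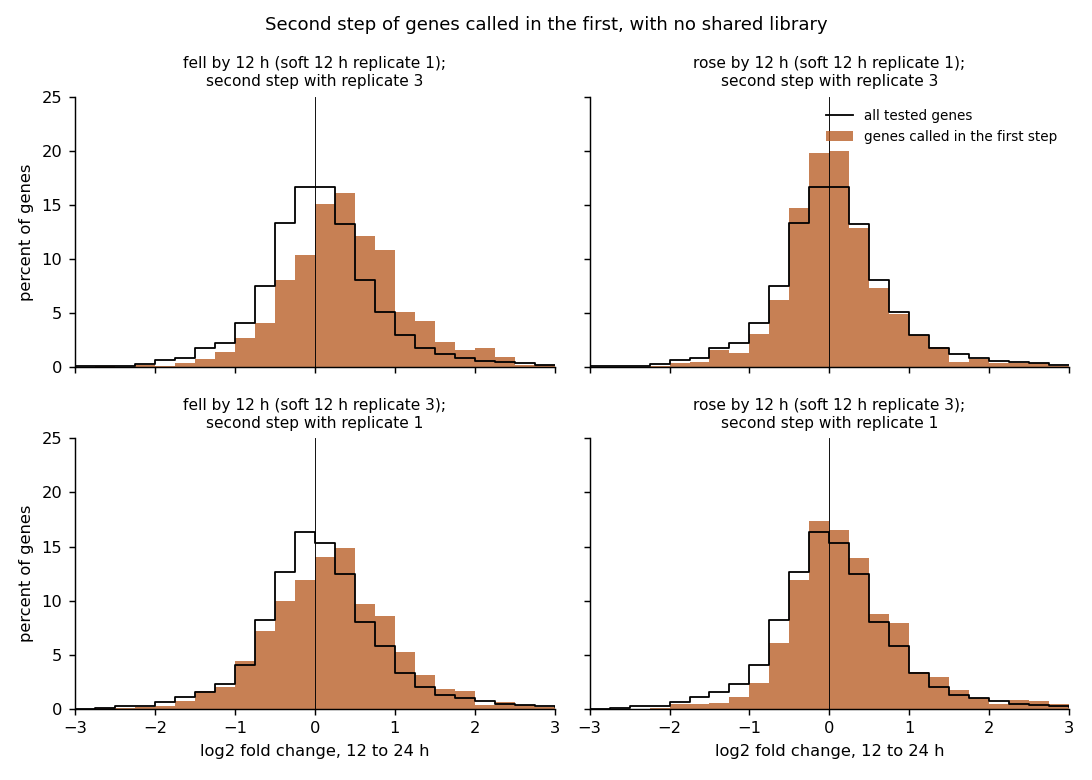
Percent of genes in bins of the second-step log2 fold change (soft 24 h minus soft 12 h) for genes called in the first step (bars) and for all tested genes (line), with a different 12 h library in each step. Genes that fell by 12 h lie to the right of the line in both rows, and genes that rose do not lie to its left (values beyond 3 in either direction are outside the axis).

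On stiff the same window called 3630 genes (30.6% of tested genes), 1717 higher (14.5%) and 1913 lower (16.1%) at 24 h. The substrates have separate libraries at both times, so the steps can be set side by side. Genes that rose on stiff had a median log2 fold change of 0.56 on soft and 94.6% were positive there. Genes that fell on stiff had a median of -0.57 on soft and 90.1% were negative. Of the risen genes 1094 were called on both substrates, which are 48.6% of those called on soft and 63.7% of those called on stiff. For falls the number was 1358, or 59.9% of the soft and 71.0% of the stiff calls. Calls in opposite directions were almost all of 1 kind, with 71 genes risen on soft and fallen on stiff and 1 gene the other way. Across genes the steps correlated with Pearson's r of 0.612, as a description over 11857 genes.

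The difference between the steps was tested directly, as the soft step minus the stiff step. This called 526 genes (4.44% of tested genes), 457 with a higher step on soft (3.85%) and 69 with a lower one (0.582%). The 457 genes had a median step of 0.82 on soft against -0.18 on stiff. On stiff 30.4% of them were above 0, against 50.5% of all tested genes, in libraries that also chose them. The 69 genes had -0.57 on soft against 0.14 on stiff. Genes chosen in 1 round and read in the other gave the same reading for the higher steps only. Of 218 genes with a more than 2-fold higher step on soft in round 1, 195 (89.5%) had a higher one in round 3, with a median log2 difference of 0.84, and of 213 chosen in round 3, 176 (82.6%) did so in round 1, with a median of 0.88. For lower steps the counts were 33 of 59 (55.9%) and 58 of 90 (64.4%), with medians of -0.17 and -0.20. In either reading the difference stayed over 2-fold in 90 genes for higher steps and in 6 for lower steps. Over all tested genes the median difference in the full fit was -0.02, and their share by sign in each round is not given here. The count of 526 fell to 279 without soft 12 h replicate 3 and to 293 with all libraries thinned to the smallest total. The 69 lower steps became 17 to 45 when soft 12 h replicate 3, soft 24 h replicate 2, any stiff 12 h library or stiff 24 h replicate 2 or 3 was left out, and 110 without soft 24 h replicate 3.

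**Figure D5:**
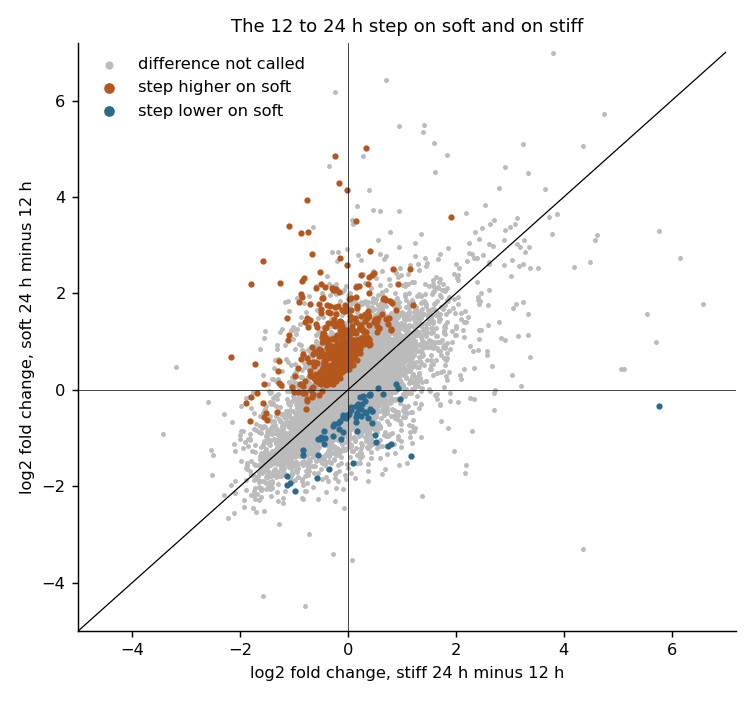
Each point is a tested gene, with the log2 fold change from 12 to 24 h on soft (vertical) and on stiff (horizontal), and the line marks equal steps. The 457 genes with a higher step on soft (orange) lie mostly above 0 on soft and mostly below 0 on stiff, with medians of 0.82 and -0.18.

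The 457 genes with a higher step on soft were set apart at 12 h more than at 24 h. Their median difference, soft minus stiff, was -0.81 at 12 h and 0.13 at 24 h on the log2 scale, and they were chosen on those libraries. At 0 and 36 h, whose libraries had no part in the choice, it was -0.08 and 0.11. The 69 genes with a lower step had medians of 0.46 at 12 h and -0.18 at 24 h, and of 0.04 and -0.11 at 0 and 36 h.

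The returning genes were also read on stiff, where no library had a part in choosing them. The 652 genes that fell and rose on soft had median changes of -0.18 from 0 to 12 h and 0.07 from 12 to 24 h on stiff, against 0.01 in both steps for all tested genes. The 457 genes that rose and fell on soft had medians of 0.24 and -0.22 on stiff. In the stiff step 58.3% of the 652 genes were positive and 14.9% of the 457, against 50.5% of all tested genes. Of all genes risen on soft from 12 to 24 h 83.2% were positive there, and of all fallen 6.96%. The stiff step called 125 of the 652 higher and 65 lower, and 1 of the 457 higher and 178 lower. It called 14.5% of all tested genes higher and 16.1% lower. From 0 to 12 h on stiff 2551 genes were called (21.5% of tested genes), 1395 higher (11.8%) and 1156 lower (9.75%). Over both steps on stiff 143 genes fell and then rose (1.21% of tested genes) and 132 rose and then fell (1.11%). Of the genes that fell and then rose 66 were shared with soft, or 10.1% of the soft and 46.2% of the stiff genes, and of those that rose and then fell 76, or 16.6% of the soft and 57.6% of the stiff genes. Opposite courses were called on the 2 substrates in 1 gene.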

How the data were processed

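The deposited values are raw counts of each gene in each library, which the authors did not scale. QuantSeq FWD libraries came from column-purified RNA, per the labels' protocols. HISAT2 2.1.0, HTSeq, FastQC and the build rn6 are named in the submitters' processing notes. For the annotation release, strand setting, trimming and duplicates the sources used here give nothing, so overlapping or near-identical genes may share counts.

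The soft 24 h and 12 h groups were compared with edgeR 4.0.16 (R 4.3.3), by quasi-likelihood F tests after fitting 8 substrate-by-time means to all 23 libraries with TMM factors, and the filterByExpr filter (minimum count 10, minimum total 15). Adjusted p-values are Benjamini-Hochberg over all tested genes, with calls under 0.05. Standard errors follow from the F statistic. Levels for sets and rounds are log2 CPM with a prior count of 2. Figures used matplotlib 3.10.9.

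Libraries of 1 group differed by more than sampling noise in every pair (chi-square per degree of freedom 2.42 to 9.11), and each counted as 1 sample. The test was tried on simulated data. The planned gene lists and naming rule need symbols, so its fallback was used: the 2 risen and 2 fallen identifiers with the smallest p. Alternatives were RLE factors, no scaling, other filters, DESeq2 1.42.0, the round as a block, compared groups alone, thinning, each library left out, and 1 soft 12 h library per step. Reading genes from round to round and the unshared steps under other scalings were added after seeing the data. Members, sets and tests were chosen with earlier results of these data known.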

Additional observations from a re-analysis of the deposited data

Results flagged for a closer look

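The step from 12 to 24 h differed between soft and stiff in 526 genes by edgeR's test of the difference itself. Of the 4 identifiers shown, 2 were among them. ENSRNOG00000026589 had a log2 fold change of 1.75 on soft and 1.20 on stiff, a difference of 0.55 (SE 0.146), with a Benjamini-Hochberg adjusted p of 0.0225 in edgeR's quasi-likelihood test. This call was lost on thinned counts (adjusted p = 0.144) and without soft 24 h replicate 2 (0.092), soft 12 h replicate 3 (0.123), stiff 12 h replicate 3 (0.0608) or stiff 24 h replicate 3 (0.0506), by the same edgeR test. ENSRNOG00000001088 had -1.78 on soft and -1.14 on stiff, a difference of -0.64 (SE 0.154, edgeR adjusted p = 0.0094). Its call was lost on thinned counts (edgeR adjusted p = 0.0578) and without soft 12 h replicate 1 (0.109) or stiff 24 h replicate 2 (0.0576). ENSRNOG00000021713 had -1.77 on soft and -1.29 on stiff, a difference of -0.48 (SE 0.144, edgeR adjusted p = 0.0509), and was not called. In edgeR it was called with no filter (adjusted p = 0.0154), the replicate block (0.00702) or compared groups alone (0.0411). A filter of 5 CPM in 3 libraries (0.0476) and DESeq2's Wald test (0.0303) also called it. It stayed uncalled with RLE factors (edgeR adjusted p = 0.0558), no scaling (0.0817) and thinned counts (0.0545). All 4 identifiers were picked on the soft libraries, which enlarges their soft step.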

How the results depend on the processing

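The counts of the soft step, the stiff step and soft 24 h minus 0 h moved by less than 1.5 times under every alternative run, with 3134 to 4749 genes for the soft step. The steps' difference, 526, was 293 on thinned counts, with 261 higher and 32 lower, and its lower genes were 39 with no scaling, 190 with no filter and 151 with the replicate block. Leaving out 1 library gave 279 to 596 for all, 248 to 486 for higher and 17 to 110 for lower steps. For soft 12 h minus 0 h, thinning gave 2213 genes (1100 higher), and leaving out 1 library gave 2150 to 3303, with 1147 to 1500 higher and 1003 to 1820 lower. Returning genes were 643 on thinned counts (213 up then down, 430 down then up, 453 back), and up then down were 258 with no scaling. Leaving out 1 library gave 692 to 1076 returning, 215 to 441 up then down, 420 to 746 down then up and 440 to 704 back, with 692 and 696 without soft 12 h replicate 1 or 3. With 1 soft 12 h library in each step they were 549 (185, 364, 301 back) and 527 (150, 377, 317 back). Thinning leaves fewer counts to test on, and the cause of the other changes was not tested. The round numbers were not used to pair libraries in the main fit. Deviations from the group mean of same-numbered soft 24 h and 12 h libraries correlated at 0.0989 and 0.106, and of stiff ones at 0.0322 to 0.0567. These are low, though each of these libraries correlated best with its own number. The 2 soft 12 h libraries deviate as mirror images, so a soft correlation only changes its sign at the other number. With the round as a block the soft step called 4749 genes and the difference 680. The depth of the stiff 12 h libraries and the 2 soft 12 h libraries limit what can be called.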

Other observations

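Hardly any gene switched on or off over the step at this depth. In all, 2 identifiers had 0 counts in both soft 12 h libraries and at least 1 CPM in every soft 24 h library, and both were detected in the stiff 12 h libraries. The reverse, 0 counts in all 3 soft 24 h libraries with at least 1 CPM in both soft 12 h libraries, was met by 0 identifiers. The rules ask for 0 counts in unequal numbers of libraries, so they are not compared. With every library thinned to 2462360 counts, the soft 24 h libraries had 13256, 13164 and 13385 identifiers with a count and the soft 12 h libraries 13142 and 13315, so the groups overlapped.

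Genes that moved from 12 to 24 h on stiff mostly went on in the same direction on soft after 24 h. The 1717 risen genes had a median log2 difference of 0.18 between soft 36 h and soft 24 h, and 78.3% of them were higher at 36 h. The 1913 fallen genes had a median of -0.17, and 22.3% were higher. These libraries had no part in choosing the genes. The share over all tested genes for soft 36 h minus 24 h is not given here, so these values have no background beside them.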
